A study of Homo sapiens with 3 samples.

Results

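The tau kinase genes considered here are 10 genes whose products phosphorylate the tau protein or activate a kinase that does: GSK3A, GSK3B, CDK5, CDK5R1, MARK1, MARK2, MARK3, MARK4, FYN and TTBK1. They were described by the accessible chromatin around them in human neurons. ATAC-seq, in which the Tn5 transposase inserts sequencing adapters into open DNA, was run on 3 biological replicates of NGN2-driven human neurons at day 14 of differentiation. The neurons were grown from the induced pluripotent stem cell line KOLF2.1J, and NGN2 is a neurogenic transcription factor. All 3 replicates come from this 1 line and form 1 group, combined by the submitters in 1 list of accessible regions. That list holds no value per replicate, so each value below is pooled and has no spread between replicates.

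A region was taken for a gene when a summit, its point of highest signal, lay inside the RefSeq gene body or within 50 kb of its outer ends. The 10 windows do not overlap. They held 82 distinct regions with 188 summits, out of 65234 regions and 145092 summits in the whole list. For each summit the authors deposited a fold enrichment, a ratio of signal over a local background. The number of pooled tags behind it, meaning the whole-number pileup at the summit, was recovered from that ratio and its p-value, and is given with an exact Poisson 95% interval. A region with several summits is represented by the one with the highest −log10 p, also when it is counted as within 1 kb of a gene end or start. The intervals cover counting error only, because amplified tags are not independent molecules and the replicates cannot be separated.

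Tau binds microtubules and is released from them when certain serines and threonines are phosphorylated, and hyperphosphorylated tau makes up the tangles of Alzheimer disease. GSK3 and CDK5 are proline-directed kinases that modify residues flanking the microtubule-binding repeats. The MARK kinases modify the repeats themselves, TTBK1 is a kinase found mainly in the brain, and FYN is a tyrosine kinase of the Src family that binds the proline-rich part of tau.

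Markers fixed for the cell label gave a mixed picture at gene ends. A region lay within 1 kb of an outer end in 7 of 10 neuronal genes, against 66.7% of 20033 protein-coding genes, so this share was near the background. TUBB3, RBFOX3 and ELAVL4 were the neuronal genes without one. SLC17A6, the vesicular glutamate transporter of many NGN2-driven neurons, had one with 227 tags, and SLC17A7 had none. For other cell types the counts were 1 of 5 pluripotency genes (LIN28A), 4 of 4 neural progenitor genes (PAX6, SOX2, NES, HES5), 1 of 4 astrocyte and oligodendrocyte genes (AQP4, 120 tags), 1 of 3 microglial genes (CX3CR1, 239 tags) and 0 of 3 genes of other tissues. At PAX6 the region, with 319 tags, was at the end opposite its listed outer start, which had none. Among the marker genes without an accessible outer end, TUBB3, RBFOX3, the pluripotency genes LIN28B and DPPA4, and MBP of oligodendrocytes had a summit within 1 kb of a start inside the gene. Whether other cells contributed to the regions below was not tested, and in pooled cells a region open in fewer cells and one less open in each cell cannot be told apart.

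Every one of the 10 genes had an accessible region at an outer end, while the level there spanned a 16.5-fold range. Such a region was present in 66.7% of all protein-coding genes, as given above. Start sites came from a RefSeq promoter table, which holds 9 of the 10 genes; MARK1 has no entry, and its lower-coordinate end was used in its place because it was the accessible one, so its position there is not independent of the measurement. Within 1 kb of the outer start, a summit was found for 9 of 9 genes, against 69.2% of the 13818 protein-coding genes with a listed outer start. At the opposite end none of these 9 had the strongest summit of a region, where the share over all such genes was 7.81%. The closest case was MARK2, with a strongest summit 1.049 kb from that end. A weaker summit of the same region, with 101 tags, lay within 1 kb of it. An accessible end was thus common among all genes, and the 10 differed from each other in level rather than in having one.

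Promoter sequences are printed for the genes at the extremes of that range (GSK3B at the top, TTBK1 and MARK4 at the bottom), for MARK3, which had the highest fold enrichment, and for an accessible and an inaccessible start of FYN. Each is the 250 bases before the start in the gene's own direction, from RefSeq, GRCh38.p14, and ends at the base before the start site. Capitals mark matches, on either strand, to any of 8 words: GGGCGG (the GC box bound by SP1 family factors), CCGGAAG (ETS), TGACGTCA (CREB), the palindrome of NRF1, CCAAT (NFY), and 3 forms of the E-box, the class of site bound by NGN2 and other basic helix-loop-helix factors, of which the first is CATATG, the second form is CAGATG and the last of them is CAGCTG. No matches overlapped each other.
GSK3B, chr3:120094448-120094697, minus strand: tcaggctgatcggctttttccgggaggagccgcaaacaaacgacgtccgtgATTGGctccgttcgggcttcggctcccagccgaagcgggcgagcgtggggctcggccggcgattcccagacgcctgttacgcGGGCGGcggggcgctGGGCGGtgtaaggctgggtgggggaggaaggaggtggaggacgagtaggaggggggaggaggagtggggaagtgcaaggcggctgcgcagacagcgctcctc
FYN outer start, chr6:111873453-111873702, minus strand: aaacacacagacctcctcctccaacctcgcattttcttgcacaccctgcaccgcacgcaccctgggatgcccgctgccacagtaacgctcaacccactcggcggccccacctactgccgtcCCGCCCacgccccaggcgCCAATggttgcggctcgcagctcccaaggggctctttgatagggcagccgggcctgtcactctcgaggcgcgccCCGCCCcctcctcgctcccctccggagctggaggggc
MARK3, chr14:103385165-103385414, plus strand: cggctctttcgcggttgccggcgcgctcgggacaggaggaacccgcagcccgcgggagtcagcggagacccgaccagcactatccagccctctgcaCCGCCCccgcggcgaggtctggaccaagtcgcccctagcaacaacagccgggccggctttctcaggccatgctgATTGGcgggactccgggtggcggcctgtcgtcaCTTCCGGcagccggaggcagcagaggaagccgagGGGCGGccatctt
TTBK1, chr6:43243231-43243480, plus strand: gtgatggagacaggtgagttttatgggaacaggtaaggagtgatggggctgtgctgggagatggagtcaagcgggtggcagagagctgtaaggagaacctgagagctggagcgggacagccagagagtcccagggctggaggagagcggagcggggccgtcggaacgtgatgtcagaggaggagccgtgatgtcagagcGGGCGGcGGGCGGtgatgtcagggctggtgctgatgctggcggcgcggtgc
MARK4, chr19:45251021-45251270, plus strand: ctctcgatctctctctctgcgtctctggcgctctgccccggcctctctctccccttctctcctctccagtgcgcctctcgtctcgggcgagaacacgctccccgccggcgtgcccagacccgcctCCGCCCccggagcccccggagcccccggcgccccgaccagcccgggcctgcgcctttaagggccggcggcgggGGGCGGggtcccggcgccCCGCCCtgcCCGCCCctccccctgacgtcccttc
FYN inner start, chr6:111759918-111760167, minus strand: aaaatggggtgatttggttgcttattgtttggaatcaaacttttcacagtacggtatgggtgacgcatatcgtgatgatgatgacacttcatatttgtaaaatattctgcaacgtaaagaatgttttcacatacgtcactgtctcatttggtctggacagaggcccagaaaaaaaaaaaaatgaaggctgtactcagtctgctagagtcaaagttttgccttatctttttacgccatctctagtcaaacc

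All 9 outer starts with a sequence held GGGCGG in these 250 bases, against 56.0% of 13818 outer starts of protein-coding genes. The 13818 include 4260 without a region, whereas all 9 have one. Shares of the words among accessible starts alone were not computed. CCAAT was found in GSK3B, MARK3 and FYN (3 of 9, against 35.2% of all), and CCGGAAG in CDK5R1 and MARK3 (2 of 9, against 12.1%). None of the 9 held TGACGTCA, the NRF1 palindrome or an E-box of the 3 kinds, which were present in 2.41%, 1.55%, 1.64%, 9.89% and 13.4% of all outer starts in the order listed above. A match is only a run of letters, and a lack of one says only that these letters are not in this window. GC content ranged from 63.6% in TTBK1 to 79.6% in CDK5R1, with a median of 65.6% for all accessible outer starts and 51.6% for those without a region. Base composition did not put all 9 genes in the order of their tags, and no correlation was computed. TTBK1, second lowest in tags, did have the lowest GC content and the fewest CpG dinucleotides, 15. MARK4, with the fewest tags at its start, had 77.2% GC and 30 CpG dinucleotides, more than the 68.8% and 27 of GSK3B, with the most. CDK5R1 had 46 CpGs, at percentile 99.6 of all outer starts, and a tag count near the middle of the range.

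GSK3B, one of the paralogous serine/threonine kinases of the GSK3 pair and a main tau kinase in neurons, had the most heavily tagged start of the 10. Its region spanned 120093849 to 120095911 on chromosome 3, and the strongest summit, 580 bp before the start, collected 3679 tags (interval 3561 to 3800). Among 9558 accessible starts of protein-coding genes only 1 had more, with 3783. The region was 2063 bp wide and held 7 summits. The summit at 391 bp before the start had 3423 tags and the one at 172 bp before it, inside the printed sequence, had 2236. Signal was therefore spread over several summits before the start, with 834 and 846 tags at the pair of summits after it. The divergent non-coding gene GSK3B-DT begins at the same region, and the signal may belong to either gene.

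Fold enrichment placed the same region differently. It was 8.87, at percentile 32.8 of accessible starts, whereas the tag count stood at percentile 99.98. The local background there was 413.9 tags, against a median of 88.4 over accessible starts. The pair of measures therefore ranked this start very differently, and both are given for each gene.

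GSK3A, the other paralog, had 2101 tags (interval 2012 to 2193) in a region from 42242333 to 42243438 on chromosome 19, with 2 summits of almost equal height at 196 and 605 bp before the start (2101 and 2103 tags). GSK3B thus had 1.75 times the tags of GSK3A at the start. Fold enrichment was nearly equal, at 8.45 and 8.87.

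The surroundings of the GSK3 genes differed more than their starts. GSK3A, 12.4 kb long, lies in a gene-dense stretch and had 9 regions in its window, at percentile 92.8 of 1914 genes within 20% of its length. None lay inside GSK3A. The strongest by fold enrichment was at the ends of ZNF526 and DEDD2 (42219844 to 42220711, 12.3-fold, 2070 tags), and the one with the most tags was at CIC (42267982 to 42269375, 10.0-fold, 3066 tags). A further region 2.27 kb before the GSK3A start had 1124 tags and a fold enrichment of 4.43.

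GSK3B, 273.1 kb long, had 4 regions in its window, at percentile 10.1 of 569 genes of like length, whose median was 9. Of these, 2 lay inside the gene. The region from 119891810 to 119892661, 202.3 kb after the start, had a fold enrichment of 10.1, higher than that of the start, with 304 tags (interval 271 to 340). The other, from 120003716 to 120004477, had 4.73-fold and 142 tags. Both sat on the floor of the background, 29.2 tags, so the 10.1-fold there rests on 304 tags and the 8.87-fold at the start on 3679.

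CDK5 is a cyclin-dependent kinase that is active in neurons rather than in the cell cycle, and CDK5R1 encodes p35, the regulatory subunit that activates it. The start of CDK5 had 2773 tags (interval 2671 to 2878) and a fold enrichment of 12.0, in a region from 151057545 to 151058759 on chromosome 7. That of CDK5R1 had 1046 tags (interval 984 to 1111) and 7.37-fold, in a region from 32486215 to 32487713 on chromosome 17. The kinase thus had 2.65 times the tags of its activator. Among accessible starts the tag counts were at percentiles 98.9 and 51.9.

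The CDK5 region also covers an end of SLC4A2, 0.14 kb from the summit, so it cannot be given to CDK5 alone. Of accessible starts of protein-coding genes, 25.3% had a region that was also within 1 kb of an end of another protein-coding gene. Of the 10 genes, CDK5 was the one with such a region. At CDK5R1 the strongest summit was 383 bp before the start, and a second one at 28 bp before it had 874 tags.

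Neither gene, at 4.08 kb and 4.26 kb, held a region over 1 kb from both its ends. The CDK5 window held 9 regions, at percentile 92.5 of 1016 genes of like length, and 6 of these were at ends of other genes. The highest by fold enrichment was at ABCB8 (151027955 to 151029079, 15.3-fold, 2374 tags), and a region at FASTK and TMUB1 (151080174 to 151081229) had 7.97-fold and 1215 tags. The CDK5R1 window held 4 regions, at percentile 47.0. They included the start of PSMD11, a proteasome subunit gene, with 13.9-fold and 1020 tags (32444103 to 32445366), and a region at an end of the non-coding gene LOC107985012 (32518878 to 32520089) with 10.2-fold and 1269 tags. The latter lay 28.3 kb beyond the CDK5R1 end and had more tags than the CDK5R1 start.

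**Figure D1:**
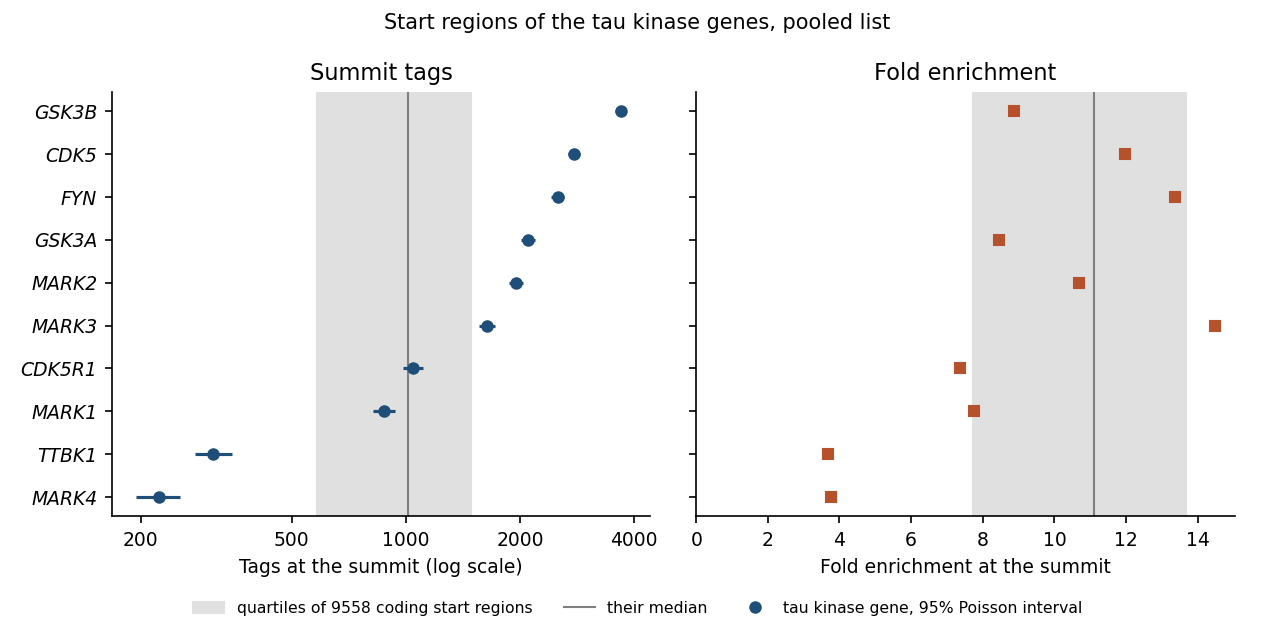
Accessible regions at the starts of the 10 tau kinase genes, ordered by tags; the left panel gives pooled tags at the strongest summit on a log axis with exact Poisson 95% intervals, the right panel the authors' fold enrichment, and grey bands and lines the quartiles and median of 9558 accessible starts of protein-coding genes. Tags fall from 3679 at GSK3B to 223 at MARK4, and the order by fold enrichment is different, with MARK3 highest at 14.5.

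The 4 MARK genes, which encode the microtubule affinity-regulating kinases, differed widely at their starts. MARK2 had 1951 tags (interval 1865 to 2040), MARK3 had 1637 (1559 to 1718), MARK1 had 874 (817 to 934) and MARK4 had 223 (195 to 254). Between the extremes, MARK2 had 8.75 times the tags of MARK4. Fold enrichments were 10.7, 14.5, 7.75 and 3.75 in the same order of genes. MARK3 had the highest fold enrichment of all 10 starts, at percentile 82.8, with a tag count at percentile 80.9.

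MARK2 and MARK3 each had 2 summits at the start, the dominant one just before it, in regions of 1237 and 1591 bp (percentiles 39.1 and 77.2 by width). In MARK2 (63838538 to 63839774 on chromosome 11) it was 143 bp before, followed by a summit of 250 tags. In MARK3 (103384682 to 103386272 on chromosome 14) it was 105 bp before, followed by one of 320 tags. The printed MARK3 sequence covers its main summit, with a CCGGAAG match 47 bp and a GGGCGG match 13 bp before the start.

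MARK1 had the widest start region of the 10, 2256 bp (220527268 to 220529523 on chromosome 1), at percentile 97.8 of accessible starts, with 5 summits of 215 to 874 tags. Beyond its start MARK1 held no further region over its 136.3 kb. The median of 1217 genes of like length was 2 such regions, and 14.9% of them had none. The others in its window were at C1orf115 (220689927 to 220690992, 11.8-fold, 748 tags), at the ends of a pair of non-coding genes 40.5 kb before the start (220487020 to 220487957, 7.75-fold, 303 tags), and 1 of 183 tags beyond its far end.

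MARK4 had the fewest tags of the 10 at its start and, after TTBK1, the lowest fold enrichment, and the signal there was split. A region from 45250540 to 45251310 on chromosome 19 had its summit 110 bp before the start, and a second region from 45251585 to 45252372 had 149 tags, a fold enrichment of 2.51 and a summit 618 bp after the start. They were 274 bp apart. Only 1.32% of 13818 protein-coding genes had more than 1 region with its summit within 1 kb of the outer start. Another region 2.44 kb before the start had 294 tags (interval 261 to 330), more than either. Tag count and fold enrichment at the MARK4 start were both low, at percentiles 6.18 and 4.01 of accessible starts.

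The whole MARK4 window was low in fold enrichment, with a maximum of 7.67. The next region, 65.4 kb from the gene and outside the window, had 18.5-fold and 1492 tags. Within the window the 3 highest were 7.67 with 309 tags (45338490 to 45338968, near KLC3), 6.11 with 298 tags (45326061 to 45326693, near CKM) and 4.96 with 294 tags at the region 2.44 kb before the start. Inside the gene there was 1 region (45275397 to 45275802), of 109 tags and 3.64-fold. The second start region carries a score of 603, under the stricter minimum of 830, and is lost with that minimum.

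Inside MARK2 there were 3 regions over 1 kb from its ends, at percentile 86.6 of 1688 genes of like length, with 157 tags (63871955 to 63872577, 4.80-fold), 333 tags and 205 tags (63909454 to 63910496, 3.54-fold). The one of 205 tags is counted by a small margin, with its strongest summit 1.049 kb from the far end. The count of 3 and its percentile depend on it. The one of 333 tags (63882664 to 63883396, 7.20-fold) is at the U6 pseudogene RNU6-1306P. MARK2 has a listed inner start 49.4 kb after the outer one, and no summit lay within 1 kb of it. The nearest was that region, 5.51 kb before it. In the 250 bases before this inner start were 5 CpGs, against 28 before the outer start, and this stretch held 3 E-boxes, an ETS word and CCAAT. Of 2221 inner starts over 5 kb from the outer start of a protein-coding gene, 49.6% had a summit within 1 kb, and of 3 such starts listed for the tau kinase genes, 1 in MARK2 and 2 in FYN, none had. The highest fold enrichments elsewhere in the MARK2 window were at NAA40 (63938114 to 63939420, 15.1-fold, 1596 tags) and SPINDOC (63812703 to 63814509, 9.70-fold, 803 tags).

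MARK3 held 2 regions inside. The one from 103499736 to 103500752, 114.9 kb after the start and 3.48 kb before the far end, had 11.3-fold and 462 tags (interval 421 to 506). The other, from 103427343 to 103428008, had 5.92-fold and 178 tags. Of the 10 regions in its window, 7 lay beyond the far end, among them 1 at CKB, the brain creatine kinase gene (103522164 to 103523473, 6.19-fold, 862 tags).

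**Figure D2:**
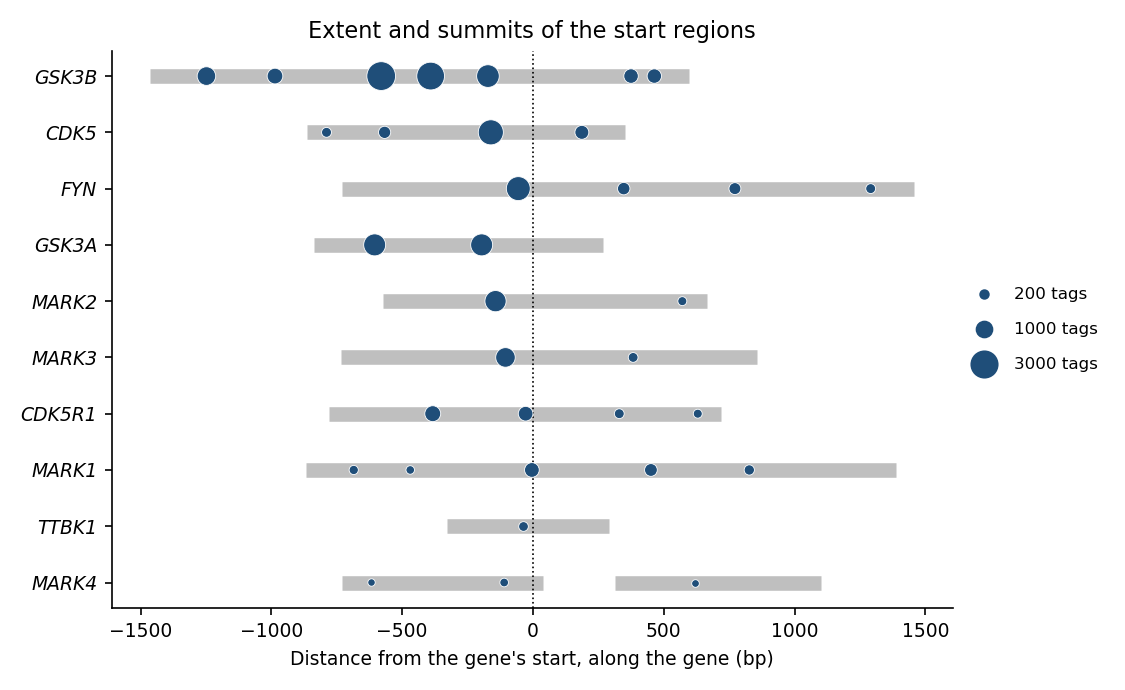
Extent of the start regions (grey bars) and their summits (circles, area rising with pooled tags) by distance from the start along the gene in bp, for the 10 tau kinase genes ordered by tags at the strongest summit. GSK3B has 7 summits, TTBK1 has 1, and the MARK4 signal falls into 2 regions 274 bp apart.

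In all 9 genes with a listed start the strongest start summit lay before it, by 38 to 580 bp. At MARK1 it lay 4 bp outside the end used. Over accessible starts the median position was 52 bp before the start, and 77.0% were before it. Start regions were widest in MARK1, FYN and GSK3B, at 2256, 2188 and 2063 bp, and narrowest in TTBK1 and MARK4, at 621 and 771 bp (percentiles 1.96 and 4.61).

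FYN had both a strong start and the most regions inside the gene. FYN encodes a Src-family tyrosine kinase that acts at synapses and in axon growth. Its start region, from 111871994 to 111874181 on chromosome 6, had 2511 tags (interval 2414 to 2611) and a fold enrichment of 13.4, with the summit 56 bp before the outer start. These were percentiles 97.7 and 71.7 of accessible starts. The non-coding gene LOC102724646 has an end at the same region.

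FYN spans 213.1 kb and held 18 regions over 1 kb from both its ends, or 8.45 per 100 kb. The median of 754 protein-coding genes within 20% of its length was 4, the 90th percentile was 9, and 1 gene had as many or more, ZMIZ1 with 19. FYN therefore stood at percentile 99.9. GSK3B, the longest of the 10, had 0.73 per 100 kb, so that FYN had 11.5 times as many per length, and GSK3B stood at percentile 14.2 of its own length class. With a score of at least 830, FYN was above every gene of its class, and with genes within 10% of its length it was as well.

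The 18 regions were not evenly placed. The first 4 lay 11.8 to 30.3 kb after the start. A stretch of 54.3 kb without a region followed, up to 84.6 kb. The other 14 lay from there to 209.6 kb, close to the far end, and 13 of the 18 were beyond its midpoint at 106.6 kb. None of the 18 was at an annotated end of another gene.

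Most of these regions were modest in level. Their tags ranged from 127 to 1070 with a median of 239.5, and 10 of 18 were above 207, the median of 24118 regions inside protein-coding genes and off all gene ends. Their median fold enrichment was 4.39, against 5.06 for those regions. The high count in FYN was thus made up of regions whose levels were near those of inside regions in general. The most tagged spanned 111730631 to 111732132, 142.3 kb after the start, with 9.03-fold and 1070 tags (interval 1007 to 1136). Next was 111685686 to 111687016, 187.1 kb after the start, with 9.78-fold and 864 tags (807 to 924). Another, 111788114 to 111789449, had 9.51-fold and 478 tags (436 to 523).

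Outside FYN, a region 15.7 kb before the start (111888633 to 111889954) had 11.8-fold and 953 tags, the second highest fold enrichment of the window. The region beyond the far end had 101 tags.

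RefSeq lists 4 starts for FYN, and they differed in accessibility. The outer start and one 381 bp after it share the strong region. The other two, 113.5 and 114.4 kb after the outer start, had no summit within 1 kb, although they lie among the inside regions. The nearest region, 111764306 to 111765488 with 187 tags, had its summit 4.75 and 5.58 kb before them. The first of these is printed above. Its 250 bases had 38.0% GC, 6 CpGs and none of the 8 words, whereas the outer start had 68.8% GC, 20 CpGs, GGGCGG at 129 and 37 bp before the start and CCAAT at 111 bp. The last start had 45.6% GC and 0 CpGs.

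**Figure D3:**
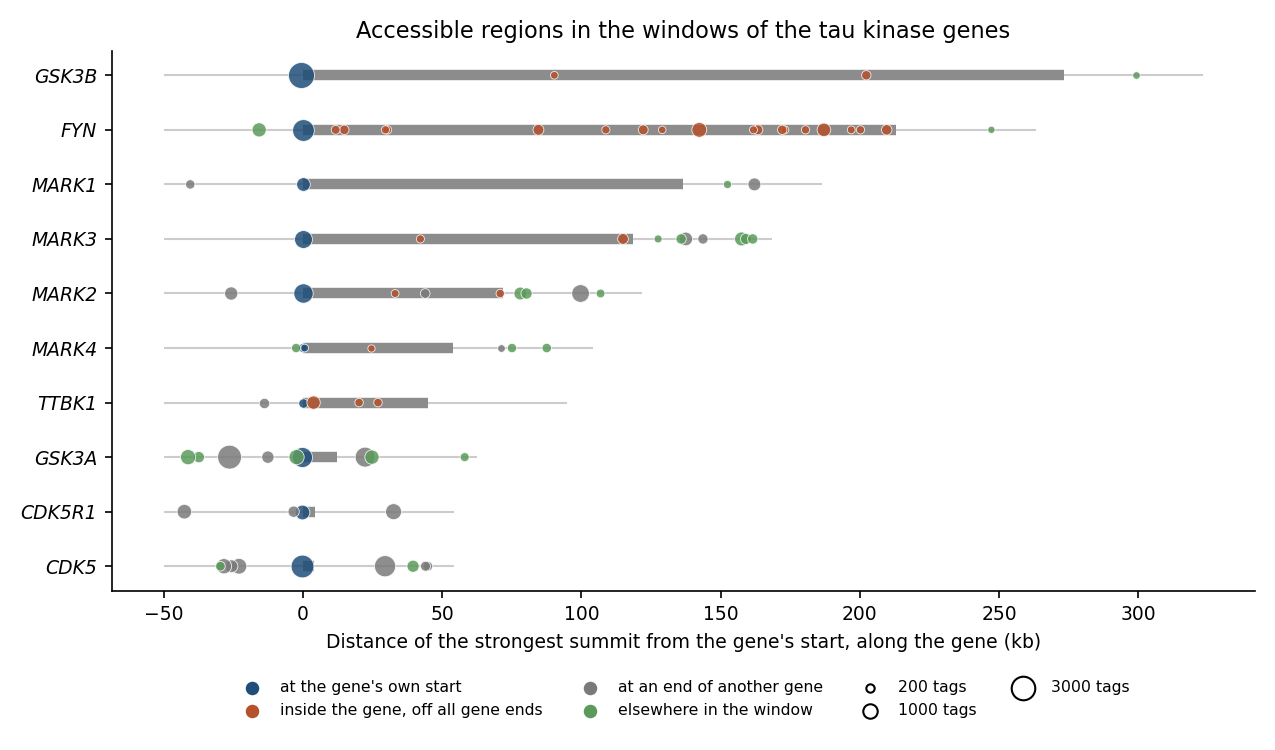
Accessible regions in the windows of the 10 tau kinase genes, placed by the distance of their strongest summit from the gene's start along the gene in kb; thick bars are gene bodies, thin lines the 50 kb flanks, and circle area rises with pooled tags. FYN carries 18 inside regions, GSK3B 2 over a longer body and MARK1 none.

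TTBK1, tau tubulin kinase 1, had the second weakest start, with 311 tags (interval 277 to 348) and a fold enrichment of 3.69, the lowest of the 10. The region (43243151 to 43243771 on chromosome 6) was 621 bp wide with 1 summit, 38 bp before the start. Its promoter sequence has adjoining GGGCGG matches 51 and 44 bp before the start, next to that summit. The start stood at percentile 10.7 by tags and 3.76 by fold enrichment.

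The strongest region of the TTBK1 window was inside the gene. It spanned 43246489 to 43247850, 3.83 kb after the start, with a fold enrichment of 9.01 and 836 tags (interval 780 to 895), 2.69 times the tags at the start. Regions inside at 20.2 and 27.0 kb had 217 and 219 tags (4.32-fold at 43262804 to 43263786, and 4.22-fold at 43270140 to 43270790). These 3 put TTBK1 at percentile 94.0 of 2048 genes of like length, whose median was 1. A region inside with more tags than the start was found in 1 of the 6 tau kinase genes that had a region inside. Over all protein-coding genes with an accessible outer start and a region inside, the share was 22.0% of 3954. The remaining region of the window was at DNPH1 (43228850 to 43229809), with 8.44-fold and 420 tags.

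**Figure D4:**
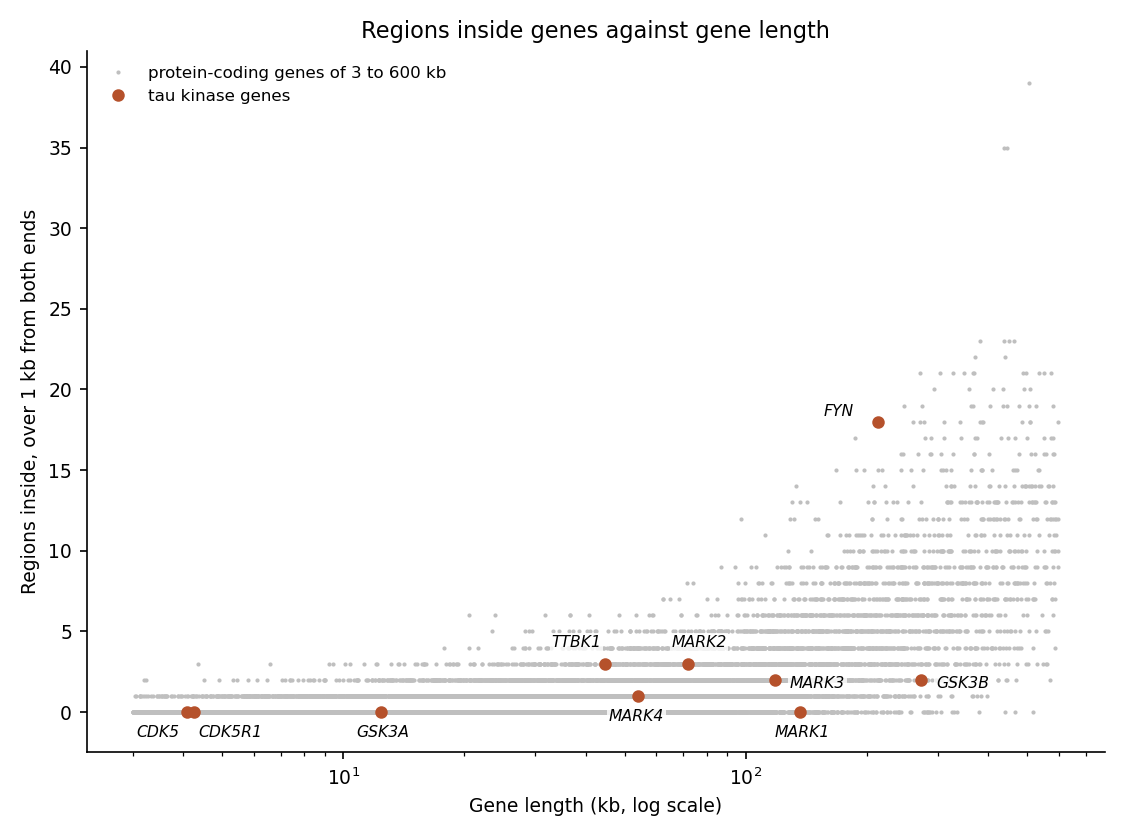
Number of accessible regions over 1 kb from both ends of a gene against gene length in kb (log axis), for protein-coding genes of 3 to 600 kb (grey points) and the 10 tau kinase genes (labelled). FYN, with 18 regions, lies near the upper edge for its length, and GSK3B and MARK1, with 2 and 0, lie low for theirs.

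By tags, the order at the starts was GSK3B, CDK5, FYN, GSK3A, MARK2, MARK3, CDK5R1, MARK1, TTBK1 and MARK4. The intervals of GSK3A and MARK2 overlapped, so their order is not settled even by counting error. Spread between replicates, which could change the order of others, is not known. By fold enrichment the order was MARK3, FYN, CDK5, MARK2, GSK3B, GSK3A, MARK1, CDK5R1, MARK4 and TTBK1. Both measures put MARK4 and TTBK1 last, and they differed on the genes above. There were 7 of 10 genes over the median of accessible starts by tags (1011), where 49.9% of all accessible starts are, and 3 of 10 by fold enrichment (11.1), where 50.0% are. MAPT itself, measured the same way at its accessible end, had 1246 tags, and 6 of the 10 kinase genes had more. Over all accessible starts the median was 1011 tags and the upper quartile 1483.75. The share of them above 1246 was not computed, so the 6 of 10 is not set against a background.

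The 82 regions divided into 11 at the genes' own starts, 28 inside them, 21 at ends of other genes and 22 elsewhere in the windows. Median fold enrichments were 8.45, 4.61, 7.75 and 4.70, and median tags 1637, 218, 748 and 413.5. FYN supplied 18 of the 28 inside regions. The other 10 had a median fold of 4.76 and 211 tags, also near the values for all regions inside protein-coding genes. The gene's own start had the most tags of its window in 6 genes (GSK3B, CDK5, MARK1, MARK2, MARK3 and FYN) and the highest fold enrichment in 2 (MARK3 and FYN). The shares over all protein-coding genes were not computed, so these counts are not read as particular to the 10.

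The 50 kb limit bears on the windows, and the first region beyond it was in some cases stronger than the last one inside it. Beyond MARK3, the region 43.1 kb from the gene had 408 tags and the next, at 51.3 kb, had 1948 (13.6-fold). For MARK2 the next region was at 63.5 kb with 14.5-fold and 1465 tags, and for CDK5R1 at 55.1 kb with 10.6-fold and 730 tags. The nearest pair to the limit was at GSK3A, with 264 tags at 45.7 kb and 289 tags at 50.7 kb.

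Other genes of tau phosphorylation were listed beside the 10: 20 further tau kinases and activators, 6 genes upstream of them, and 11 tau phosphatases and regulators. A region at an outer end was found in 31 of the 37, or 83.8%, against the 66.7% of all protein-coding genes given above, and tags there ranged from 205 to 2491 with a median of 967. Among the further kinases it was 16 of 20. DYRK1A, CSNK1E, PAK1 and BRSK1 lacked one, and of these DYRK1A, CSNK1E and PAK1 had a summit within 1 kb of a start inside the gene. CDK5R2, which encodes p39, the other activator of CDK5, had 967 tags, close to the 1046 of CDK5R1. TTBK2, the paralog of TTBK1, had 1960 tags and a fold enrichment of 15.7, the highest of the 37.

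Of the 6 upstream genes, 5 had an accessible end. STK11, which encodes the kinase LKB1 that activates the MARK kinases, had 1373 tags and 14.3-fold. Of the phosphatase genes, 10 of 11 had one, including PPP2CA and PPP2R1A, the catalytic and scaffold subunits of PP2A, the main tau phosphatase, with 2036 and 2279 tags. PPP2R2C had no accessible end. Other high fold enrichments of the list were 14.3 at PRKACA, a catalytic subunit gene of protein kinase A, and 14.2 at ABL1.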

How the data were processed

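ATAC-seq peaks of 3 samples were analysed, all in 1 group and combined by the authors in 1 list, which the labels name as the optimal set by irreproducible discovery rate. The build is hg38, per the submitters' processing notes. The aligner, peak caller and filters are not given in the sources used here. Per summit, the authors deposited a fold enrichment (linear ratio, 1.29 to 31.9), −log10 p (5.92 to 2945), −log10 q (4.28 to 2939) and a score (540 to 1000) whose scaling is not stated. No value or depth per sample was analysed here.

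Entries sharing both bounds were treated as 1 region. Tags and background were solved from the ratio and the p-value, taking the p-value as a Poisson tail above the tag count and adding 1 to both terms of the ratio. In all 145092 entries a whole number of tags fitted with an error of at most 0.00079 in −log10 p. The next whole number missed by a median of 0.266. Of 20000 simulated summits, 100.0% were recovered. They were drawn with the same formula, so they check the solving and not the formula. Summits had 58 to 3783 tags (median 189).

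Gene ends came from RefSeq GRCh38.p14, and starts from its promoter table. Named are the 10 genes, regions inside them or at their starts, the 3 highest fold enrichments of each window and, of the further pathway genes, those without an accessible end and the 5 highest; some of these are not reported here. CDK5R2, PPP2CA, PPP2R1A, regions just outside a rule and the 2.27 kb GSK3A region were added after their values were seen. The genes and lists were chosen with earlier results of these data known. No test was made, since the list has no replicates; percentiles describe this list. Alternatives were a score of at least 830, any overlap, other windows, all entries and tags in place of fold enrichment. Python 3.11.15, numpy 2.4.6, scipy 1.17.1 and pandas 2.3.3 were used.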

Additional observations from a re-analysis of the deposited data

How the results depend on the processing

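Of 26 recomputed summary values, 17 stayed within 1.5 times the main value (for the median fold enrichment, 5.99, within 4.43 to 7.20, the 95% interval of the median over regions), and 9 moved. The 82 regions in the windows became 131 with flanks of 100 kb and 37 in the gene bodies alone, the 188 summits became 304 and 78, and the median of 8 regions per window became 5 with flanks of 20 kb, 14 with 100 kb and 2.5 in the gene bodies. These follow from the sequence each setting admits. The median fold enrichment was 3.51 over all summit entries, and in recovered tags the median was 406.5. The latter is counted among the 9, but it is in another unit and could not have stayed within the limits. A region at an outer end was kept by all 10 genes with a score of at least 830 or a distance of 2 kb, and by 9 within 500 bp. There GSK3B was lost, because only the strongest summit, at 580 bp, was used. Weaker summits of that region lay 391 and 172 bp before the start. Of 70 values for single genes, 42 stayed the same by the same limits or, for percentiles, the exact binomial 95% interval, and 28 moved. The percentile of regions inside was 19.5 for GSK3B and 9.61 for MARK1 with a score of at least 830. The length class of 10% was chosen after seeing the data. No paired analysis was possible because the list holds no value per sample, which also prevents leaving out a replicate. Depth limits the weakest regions most: 109 tags inside MARK4 have an interval of 90 to 131.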

Other observations

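A high tag count with a middling fold enrichment, as at GSK3B, was not rare among strong starts. Of the 100 accessible starts of protein-coding genes with the most tags, 29 had a fold enrichment under the median of all accessible starts. Their median local background was 236.7 tags, against 88.4 for all accessible starts.

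Among the further genes of tau phosphorylation, PPP2R2B, a regulatory subunit gene of PP2A, held 17 regions inside it, and MAPK10, the gene of the neuronal kinase JNK3, held 11. PPP2R2C, without an accessible outer end, held 10. These genes were picked after their values were seen. Their counts were not set against genes of like length, so they are not read as high or low.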
